A study of Mus musculus with 4 samples.

Results

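The D-type cyclin genes (Ccnd1, Ccnd2 and Ccnd3), their kinases (Cdk4 and Cdk6), inhibitors of these kinases (Cdkn2b, Cdkn2c and Cdkn1b), the substrate gene Rb1 and the cyclin E gene Ccne1 were examined in cultured mouse mammary tumor cells. These 10 genes were picked by symbol from the 38713 genes of the deposited expression table, and each has a row there. They were proposed with the expression values of these same libraries known. Their levels and differences between genotypes are therefore given as a description, without a test. RNA sequencing was performed on 4 tumor cell lines of the C57BL/6 strain, each measured in 1 library. The JNK_WT lines (p53-/-, n = 2, replicates 1 and 2) came from parous females in which Wap-Cre had deleted floxed Trp53. The JNK_KO lines (p53-/- JNK-/-, n = 2, replicates 1 and 3) came from females in which Wap-Cre had deleted floxed Trp53 together with floxed Mapk8 and Mapk9, the genes of JNK1 and JNK2. All lines are thus labelled as lacking p53, and the Wap promoter that drives Cre is active in luminal cells of the lactating gland. The lines were established by plating dispersed tumor cells on collagen I and then on ordinary dishes, so differences between lines can include what arose during tumor growth and culture. SEs and p-values rest on the spread between these 2 lines per genotype, which the fit (limma) drew toward a trend over all tested genes. A printed SE can thus differ from the spread of the gene itself. Levels are in FPKM, that is, fragments mapped per length of transcript and scaled to the size of the library, which allows levels of different genes to be compared per length.

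D-type cyclins are made in response to growth factors and bind the kinases CDK4 and CDK6, which phosphorylate the retinoblastoma protein RB. Phosphorylated RB releases E2F transcription factors, which turn on genes for DNA synthesis and for cyclin E, the partner of CDK2. The INK4 proteins, such as p15 (Cdkn2b) and p18 (Cdkn2c), bind CDK4 and CDK6 and keep them from the D cyclins, while p27 (Cdkn1b) binds cyclin-CDK complexes. Cyclin D1 is required for the full growth of the mammary gland in pregnancy and is often in excess in breast cancer.

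Mapk8 averaged 21.5 ± 3.40 FPKM in the JNK_WT lines against 4.28 ± 0.0245 FPKM in the JNK_KO lines (SD, n = 2), and Mapk9 averaged 27.0 ± 3.84 against 10.6 ± 2.80 FPKM, so both targeted genes were lower in each JNK_KO line. Within each pair of values below, the JNK_WT lines are given as replicate 1 then 2, and the JNK_KO lines as replicate 1 then 3. Trp53, labelled as deleted in every line, was listed at 1.55 and 4.15 FPKM for JNK_WT and at 5.72 and 4.28 FPKM for JNK_KO, and without lines that keep the gene these values cannot check its deletion. FPKM summed to between 775960 and 921595 per library, and the upper quartile of tested genes lay between 33.2 and 34.3 FPKM. All 10 epithelial markers examined were at 1 FPKM or more in every line, and summed to 5014 and 3943 FPKM for the JNK_WT lines and 1817 and 3516 FPKM for the JNK_KO lines. The 4 endothelial markers, and Ptprc, Cd3e and Itgam among the leukocyte markers, were under 1 FPKM in all lines. The macrophage marker Cd68 was detected, at 20.0 and 3.15 FPKM for JNK_WT and 2.65 and 8.43 FPKM for JNK_KO, and Csf1r reached 1.82 FPKM. Among 8 fibroblast markers, Col1a1 and Lum were under 1 FPKM throughout. Pdgfra, Pdgfrb and Dcn were higher in both JNK_KO lines than in both JNK_WT lines, an order found for 18.3% of all tested genes. Groups overlapped for Col1a2, Col3a1 and Vim. Col1a2 was at 10.3 and 0.374 FPKM for JNK_WT and 0.698 and 2.56 FPKM for JNK_KO. The fibroblast list summed to 343 and 48.9 FPKM for the JNK_WT lines and 608 and 336 FPKM for the JNK_KO lines, and Vim gave the most to it except in JNK_KO replicate 3, where Dcn did. Of the epithelial markers, Epcam, Krt8 and Krt7 were lower in both JNK_KO lines than in both JNK_WT lines. This order held for 16.7% of all tested genes. The nearest lines of the groups stood 1.26-fold (Epcam), 1.07-fold (Krt8) and 1.085-fold (Krt7) apart, and groups overlapped for the other epithelial markers. The 6 basal markers summed to 25.9 and 732 FPKM for the JNK_WT lines and 37.8 and 375 FPKM for the JNK_KO lines, with overlapping groups. The part of these markers in the differences described here was not tested.

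Cyclin D2 RNA set the genotypes apart most clearly. Ccnd2 (mm10 chromosome 6, 127125162 to 127152193, minus strand) measured 154 and 98.5 FPKM in the JNK_WT lines against 11.1 and 5.59 FPKM in the JNK_KO lines. The groups did not overlap, and the lower JNK_WT line was 8.86 times the higher JNK_KO line. The means were 126 ± 39.0 and 8.35 ± 3.90 FPKM (SD, n = 2 each), a 15.1-fold difference. In bulk RNA, fewer cells expressing a gene and less of its RNA per cell cannot be told apart. On the log2(FPKM + 1) scale, on which differences of low genes are understated, JNK_KO minus JNK_WT was -3.80 (SE 0.43, from a limma fit over all tested genes), while lines of 1 genotype stood 0.64 (JNK_WT) and 0.88 (JNK_KO) apart. Only 4 of the 12998 tested genes had a lower difference. Leaving out any 1 line gave values from -4.24 to -3.36. An annotated antisense gene within Ccnd2, 9330179D12Rik, was at 0.0672 to 1.07 FPKM in the 4 lines.

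**Figure D1:**
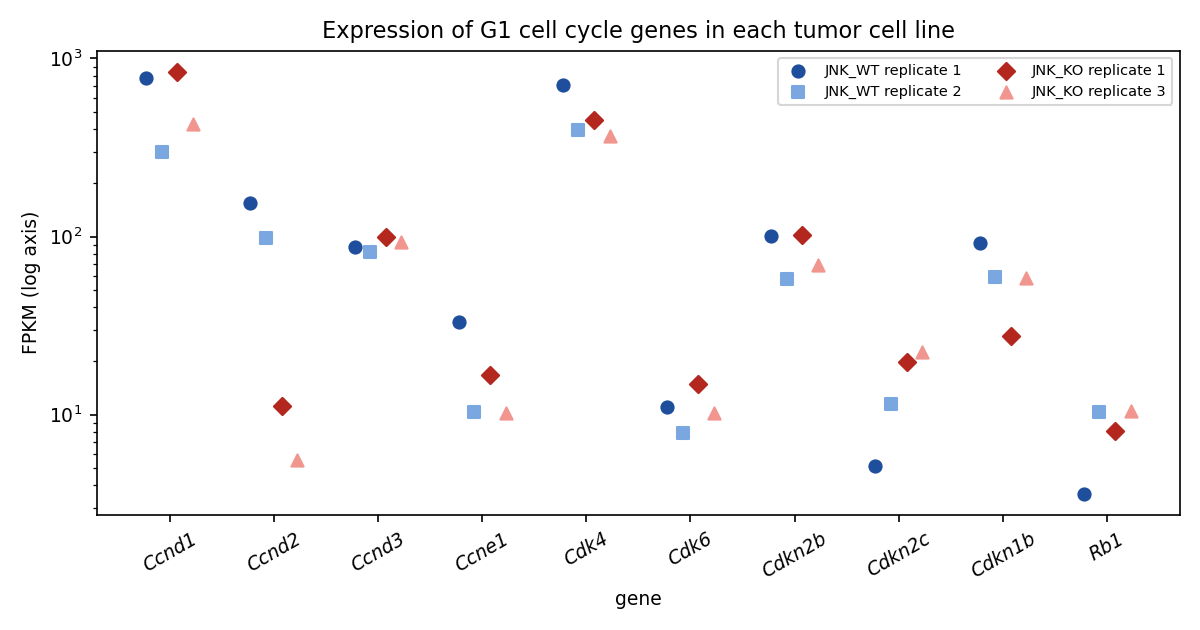
FPKM (log axis) of the 10 genes in each of the 4 lines, 1 point per library. Ccnd2 shows JNK_WT points at 98.5 and 154 FPKM and JNK_KO points at 5.59 and 11.1 FPKM, whereas the points of the other genes lie closer together or mix between genotypes.

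Cyclin D1, the most abundant of the D cyclins in each line, varied between lines of the same genotype. Ccnd1 (chromosome 7, 144929931 to 144939925, minus strand) measured 773 and 297 FPKM in the JNK_WT lines against 841 and 428 FPKM in the JNK_KO lines. The highest and the third highest of these values belong to JNK_KO lines, so the groups overlapped. The log2 difference was 0.32 (SE 0.61), smaller than the 1.38 between the JNK_WT lines or the 0.98 between the JNK_KO lines. Its mean level stood at the 99.1 percentile of the tested genes.

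Cyclin D3 was the steadiest member of the family. Ccnd3 (chromosome 17, 47505051 to 47599691, plus strand) measured 87.5 and 82.3 FPKM in the JNK_WT lines against 99.0 and 93.4 FPKM in the JNK_KO lines. Both JNK_KO lines lay above both JNK_WT lines, with 1.07-fold between the nearest lines. The log2 difference was 0.18 (SE 0.21), while lines of 1 genotype stood 0.09 (JNK_WT) and 0.08 (JNK_KO) apart. The gene Bysl, which overlaps Ccnd3 on the opposite strand, was at 15.1 to 20.2 FPKM.

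Summed over the family, D cyclin RNA came to 1015 and 478 FPKM for the JNK_WT lines and to 951 and 527 FPKM for the JNK_KO lines. The group means of 746 and 739 FPKM were close beside the spread between lines, and the log2 difference of the sum was 0.02. The make-up of that sum differed. Ccnd2 contributed 15.1% and 20.6% of it in JNK_WT cells but 1.17% and 1.06% in JNK_KO cells. Ccnd1 contributed 76.2% and 62.2% in JNK_WT cells and 88.4% and 81.2% in JNK_KO cells, and Ccnd3 contributed 8.63% to 17.7% across the lines. Per unit of Ccnd2 there was 5.03 and 3.02 times as much Ccnd1 in JNK_WT cells, against 75.7 and 76.5 times in JNK_KO cells. The shares of Ccnd1 and of Ccnd2 did not overlap between the genotypes, whereas those of Ccnd3 did. Shares of the same sum are linked, so a lower share of Ccnd2 goes with a higher share of the rest. The levels of Ccnd1 itself overlapped between the genotypes.

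**Figure D2:**
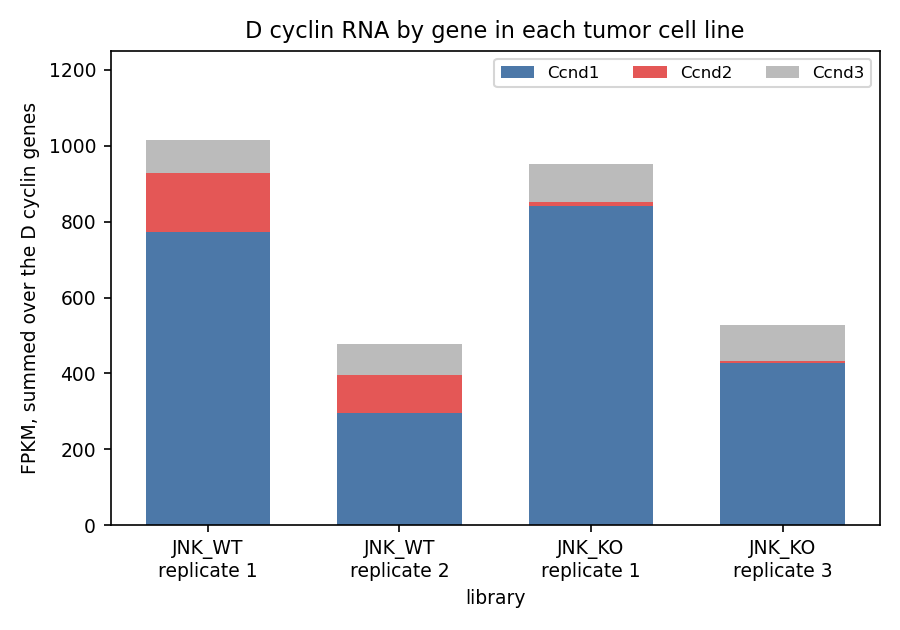
Summed FPKM of Ccnd1, Ccnd2 and Ccnd3 in each line, stacked by gene, 1 bar per library. The JNK_WT replicate 1 and JNK_KO replicate 1 bars reach 1015 and 951 FPKM and the other bars 478 and 527 FPKM, and the Ccnd2 segment is 15.1% and 20.6% of the JNK_WT bars and about 1.1% of the JNK_KO bars.

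Of the kinases, Cdk4 was far more abundant than Cdk6 in all 4 lines. Cdk4 (chromosome 10, 127063534 to 127067920, plus strand) measured 707 and 397 FPKM in the JNK_WT lines against 451 and 365 FPKM in the JNK_KO lines, with overlapping groups and a log2 difference of -0.39 (SE 0.37). Cdk6 (chromosome 5, 3341485 to 3531008, plus strand) measured 11.1 and 7.92 FPKM in the JNK_WT lines against 14.8 and 10.2 FPKM in the JNK_KO lines, again with overlapping groups, and its log2 difference was 0.36 (SE 0.34). Neither difference exceeded the spread between lines of JNK_WT cells, which was 0.83 for Cdk4 and 0.44 for Cdk6. The JNK_KO lines stood 0.30 apart for Cdk4, less than its difference in size, and 0.50 apart for Cdk6. As a share of both kinases together, Cdk6 made up 1.54% and 1.95% in JNK_WT cells and 3.18% and 2.72% in JNK_KO cells. These shares did not overlap, with a log2 difference of 0.76.

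Reads of the kinase genes may be shared with overlapping genes, since the libraries were not stated to keep strand. The antisense gene Gm17590, which overlaps Cdk6, was at 35.3 to 78.8 FPKM and thus above Cdk6 itself in every line. Tspan31, which overlaps Cdk4 on the opposite strand, was at 55.6 to 75.3 FPKM, well under Cdk4. For each unit of kinase RNA there were 1.41 and 1.18 units of D cyclin RNA in JNK_WT cells and 2.04 and 1.40 units in JNK_KO cells, ranges that overlapped.

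The INK4 genes p15 and p18 lie apart on chromosome 4 and did not follow each other. Cdkn2c (109660876 to 109667189, minus strand), which encodes p18, measured 5.17 and 11.5 FPKM in the JNK_WT lines against 19.7 and 22.3 FPKM in the JNK_KO lines. Both JNK_KO lines were above both JNK_WT lines, and the nearest lines stood 1.72-fold apart. The log2 difference was 1.33 (SE 0.43), larger than the gaps within a genotype of 1.02 (JNK_WT) and 0.17 (JNK_KO). Leaving out any 1 line gave 0.82 to 1.84. Cdkn2b (89306299 to 89311039, minus strand), which encodes p15, measured 101 and 57.7 FPKM in the JNK_WT lines against 102 and 69.5 FPKM in the JNK_KO lines. Its groups overlapped, and the log2 difference of 0.14 (SE 0.38) was under the 0.80 between the JNK_WT lines. In both genotypes Cdkn2b was the more abundant of the pair, with Cdkn2c at 4.87% and 16.6% of their sum in JNK_WT cells and at 16.2% and 24.3% in JNK_KO cells. The shares of Cdkn2c thus overlapped between the genotypes.

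Reference promoters of these INK4 genes are printed because they are related genes of 1 chromosome whose RNA behaved differently. Each runs 5′ to 3′ on the minus strand of GRCm38.p6, from 250 bases before to 50 bases after an annotated RefSeq start. Capitals mark the cyclic AMP response element TGACGTCA, a site bound by the ATF and CREB families, and the GC box GGGCGG, bound by SP1.
Cdkn2b promoter, chr4:89310983-89311282: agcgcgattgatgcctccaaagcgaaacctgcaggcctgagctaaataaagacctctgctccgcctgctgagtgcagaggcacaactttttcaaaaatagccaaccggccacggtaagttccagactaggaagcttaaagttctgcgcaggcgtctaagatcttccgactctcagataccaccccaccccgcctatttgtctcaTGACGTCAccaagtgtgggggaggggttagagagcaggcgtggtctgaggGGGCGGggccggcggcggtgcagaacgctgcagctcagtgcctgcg
Cdkn2c promoter, chr4:109666707-109667006: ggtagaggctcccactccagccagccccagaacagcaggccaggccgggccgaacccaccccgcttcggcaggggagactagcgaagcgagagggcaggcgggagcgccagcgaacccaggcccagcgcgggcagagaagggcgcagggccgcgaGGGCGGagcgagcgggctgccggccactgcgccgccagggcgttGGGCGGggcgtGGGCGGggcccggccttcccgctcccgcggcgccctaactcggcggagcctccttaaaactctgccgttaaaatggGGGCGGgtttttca

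The Cdkn2b window held 1 cyclic AMP response element, 46 bases before the start, and 1 GC box. The printed Cdkn2c window held 4 GC boxes and no such element, and the window of its other annotated start held neither. Which start is used in these lines was not tested. Promoter windows were found for 7 of the 10 genes (9 windows, as Ccnd3 and Cdkn2c have 2 starts each) and searched on both strands. The cyclic AMP response element was in 1.79% of all 32851 promoter windows of the same length and in 1 of the 9 windows. The GC box was in 35.7% of all windows and in 7 of the 9, belonging to Ccnd3, Ccne1, Cdk4, Cdkn1b, Cdkn2b and Cdkn2c. Neither the AP1 site TGAGTCA (5.2% of all windows) nor the E2F sites TTTCCCGC, TTTGGCGC, TTTCGCGC and TTTGCCGC (2.26% of all windows for the group) occurred in the 9 windows. These matches are letters in a window and do not show binding.

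The p27 gene Cdkn1b (chromosome 6, 134920401 to 134925513, plus strand) measured 92.0 and 59.4 FPKM in the JNK_WT lines against 27.7 and 58.3 FPKM in the JNK_KO lines. The lowest value, that of JNK_KO replicate 1, stood alone, and the groups were separated by only 1.02-fold between the nearest lines. The log2 difference was -0.86 (SE 0.46), while lines of 1 genotype stood 0.62 (JNK_WT) and 1.05 (JNK_KO) apart. Without JNK_KO replicate 1 the difference was -0.34.

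Cdkn1b and Ccnd2 both lie on chromosome 6, whose 628 tested genes had a median log2 difference of -0.59 in JNK_KO cells against JNK_WT cells, beside a median of 0.01 for all tested genes. Relative to that median, the difference of Cdkn1b was -0.27, and that of Ccnd2 was -3.21. Of the 10 tested genes nearest Cdkn1b, 9 were lower in JNK_KO cells on the log2 scale, with a median difference of -1.03 that was below the value of Cdkn1b itself. Of the 10 tested genes nearest Ccnd2, 9 were lower as well, with a median of -0.84 and a range from -1.56 to 2.28, so that Ccnd2 stood at -2.96 relative to its neighbours. On the whole chromosome 1 tested gene had a lower difference than Ccnd2. For Cdkn1b, 183 of the chromosome's genes had a lower and 444 a higher difference.

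**Figure D3:**
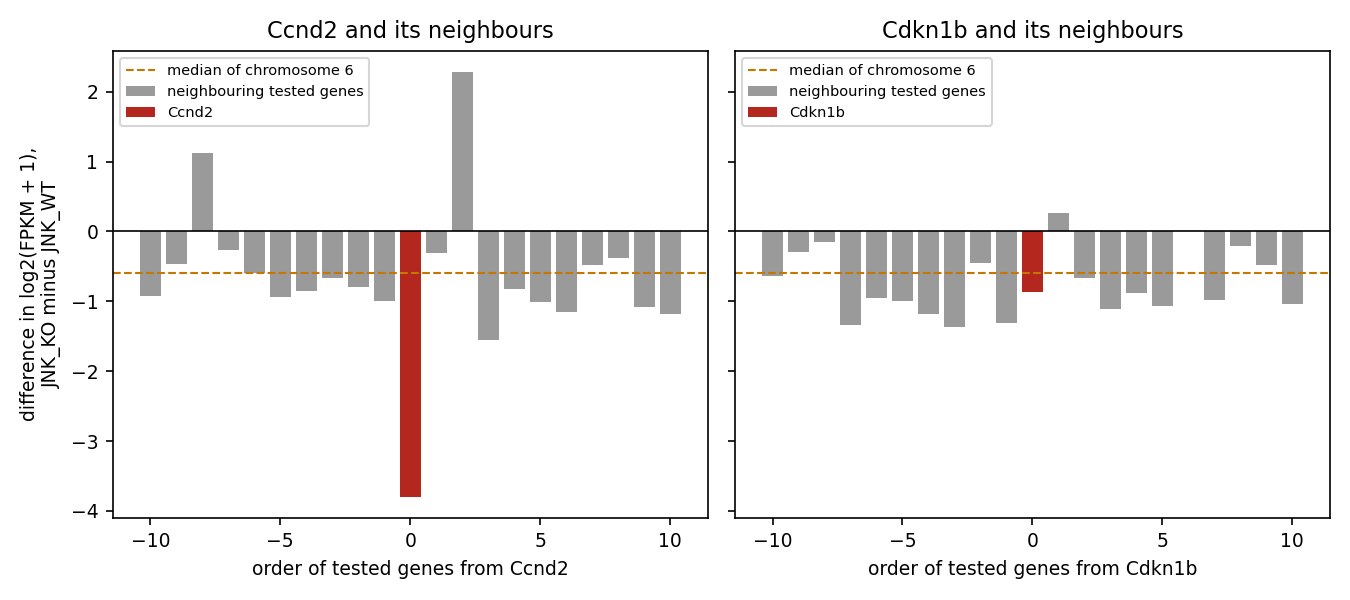
Difference in log2(FPKM + 1), JNK_KO minus JNK_WT, of Ccnd2, of Cdkn1b and of the 10 tested genes on each side in chromosomal order (bars), with the chromosome 6 median as a dashed line. Ccnd2 at -3.80 reaches far below its neighbours (median -0.84 over the nearest 10), while Cdkn1b at -0.86 lies among its own (median -1.03 over the nearest 10).

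The other members were not set against so large a chromosomal difference. The chromosome 4 median was 0.19, which left Cdkn2c at 1.14, and the 10 genes nearest to it had a median of 0.35. Medians of chromosomes 5, 7, 10, 14 and 17 lay between -0.10 and 0.14. The genes around Cdkn2b include Cdkn2a, which encodes the INK4 protein p16 and the p53 regulator ARF from a shared locus and has a single row in the table. Cdkn2a measured 549 and 239 FPKM in the JNK_WT lines against 530 and 323 FPKM in the JNK_KO lines. Its lines stood in the same order as those of Cdkn2b apart from the top pair, and the ratio of Cdkn2b to Cdkn2a was between 0.184 and 0.241 in all 4 lines.

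**Figure D4:**
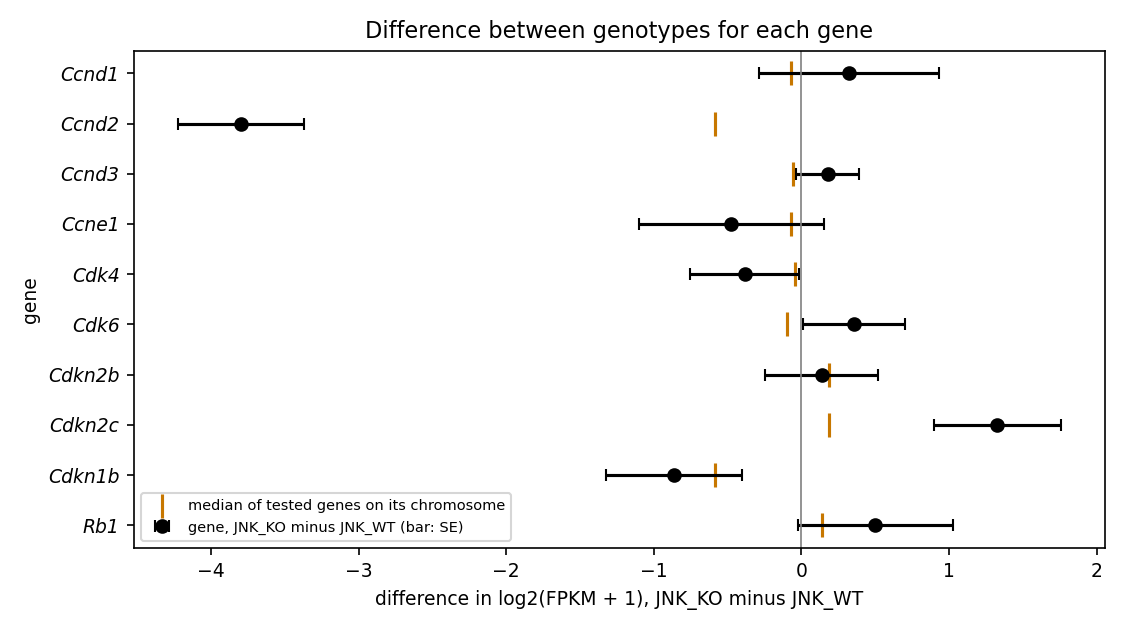
Difference in log2(FPKM + 1), JNK_KO minus JNK_WT, of each gene (points, n = 2 libraries per genotype, bars are the SE from limma) beside the median of the tested genes on its chromosome (orange ticks). Ccnd2 at -3.80 and Cdkn2c at 1.33 lie away from their chromosome medians of -0.59 and 0.19, and the bar of Cdkn1b covers the chromosome 6 median.

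Rb1 and Ccne1, which act downstream of the D cyclin kinases, varied more between the JNK_WT lines than between genotypes. Rb1 (chromosome 14, 73183673 to 73325822, minus strand) measured 3.60 and 10.3 FPKM in the JNK_WT lines against 8.11 and 10.4 FPKM in the JNK_KO lines. Only JNK_WT replicate 1 was low, and the log2 difference was 0.50 (SE 0.53), or -0.15 without that line. The Rb1 row carries more digits than those of the other members, a feature of 122 genes of the table whose origin was not stated. Several genes overlap Rb1, among them Rcbtb2 (15.6 to 18.2 FPKM) and Lpar6 (1.68 to 6.69 FPKM), so its low level is uncertain. Ccne1 (chromosome 7, 38097984 to 38107534, minus strand) measured 32.9 and 10.3 FPKM in the JNK_WT lines against 16.7 and 10.2 FPKM in the JNK_KO lines. Its groups overlapped, with a log2 difference of -0.48 (SE 0.63) that became 0.32 without JNK_WT replicate 1.

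Over the 10 genes, groups did not overlap for 4 (Ccnd3 and Cdkn2c higher, Ccnd2 and Cdkn1b lower in JNK_KO cells), in a background where groups did not overlap for 35.0% of the 12998 tested genes (18.3% with JNK_KO above, 16.7% with JNK_KO below). An absolute log2 difference over 0.75 was found for Cdkn2c (higher) and for Ccnd2 and Cdkn1b (lower), against 15.7% of the tested genes, of which 9.25% were higher and 6.43% lower. The median over the 10 genes was 0.16. Since these values took part in the choice of genes, nothing is read from the counts.

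Lines of the same genotype also differed from each other. For 7 of the 10 genes, JNK_WT replicate 1 exceeded JNK_WT replicate 2 and JNK_KO replicate 1 exceeded JNK_KO replicate 3. Among these, Ccnd1, Cdk4, Cdk6, Cdkn2b and Ccne1 were higher in both lines numbered 1 than in both other lines. Ccnd1, for example, stood at 773 and 841 FPKM in the upper lines and 297 and 428 FPKM in the lower lines. The share of all tested genes with either order was not worked out, so nothing is read from these counts. The basal keratin gene Krt14 was lower in both lines numbered 1 (7.34 FPKM for JNK_WT and 26.7 FPKM for JNK_KO) than in the others (443 and 313 FPKM). Krt17 and Trp63 stood in that order too. Acta2 did not, at 7.36 and 3.19 FPKM for JNK_WT and 1.70 and 29.0 FPKM for JNK_KO. Krt5 reached 61.9 FPKM in JNK_WT replicate 2 and was under 1 FPKM in every other line. Myh11 was under 1 FPKM in all lines. The labels do not tie equal replicate numbers to a shared origin, and a part of the basal markers in these differences was not tested.

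To place these genes in their pathway, 2 further lists were examined with limma, which called 0% of the 12998 tested genes (0 genes at an adjusted p-value under 0.05 with an absolute log2 difference over 0.75, and 992 at an unadjusted p-value under 0.05). The targeted genes Mapk8 and Mapk9 were not called either (limma adjusted p-values 0.191 and 0.429). A lack of calls therefore does not show that a gene is unchanged. Of 34 tested regulators of the G1 to S transition outside the 10 genes, 0 were called higher and 0 lower, and 1, Cul1, had an unadjusted p-value under 0.05. Their median log2 difference was 0.09, beside 0.01 for all tested genes. Within 0.5 of 0 lay 28 of the 34, a share not worked out for all tested genes. Beyond 0.75 in size, 1 was higher and 2 were lower, beside 9.25% and 6.43% of all tested genes. The JNK_KO lines both lay above the JNK_WT lines for 6 of these genes and both below for 7, in all 38.2% of the list, beside 35.0% of all tested genes (18.3% above and 16.7% below).

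Of the remaining cyclin-dependent kinase inhibitors, Cdkn1a, the p53 target that encodes p21, measured 8.0 and 26.6 FPKM in the JNK_WT lines against 7.85 and 4.58 FPKM in the JNK_KO lines. Its log2 difference of -1.16 was the largest in size of the list, yet smaller than the 1.62 between the JNK_WT lines, and the nearest lines of the groups stood 1.02-fold apart (limma adjusted p-value 0.836). Cdkn2d, which encodes the INK4 protein p19, measured 10.1 and 9.91 FPKM in the JNK_WT lines against 14.5 and 15.7 FPKM in the JNK_KO lines. Like Cdkn2c it was higher in both JNK_KO lines, with a log2 difference of 0.55 (SE 0.26, limma adjusted p-value 0.772).

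Cyclin E2 and CDK2 were also higher in both JNK_KO lines. Ccne2 measured 6.11 and 6.48 FPKM in the JNK_WT lines against 20.0 and 9.25 FPKM in the JNK_KO lines, a log2 difference of 1.01 (SE 0.44, limma adjusted p-value 0.722) opposite in sign to that of Ccne1. Cdk2 measured 14.4 and 15.3 FPKM in the JNK_WT lines against 20.5 and 18.7 FPKM in the JNK_KO lines (log2 difference 0.38, limma adjusted p-value 0.893). The RB relatives Rbl1 (0.21) and Rbl2 (0.09) and the transcription factor E2f1 (0.27) had small log2 differences and overlapping groups. Tfdp2, a dimerization partner of E2F proteins, measured 13.4 and 13.1 FPKM in the JNK_WT lines against 7.55 and 8.65 FPKM in the JNK_KO lines (log2 difference -0.65, limma adjusted p-value 0.711). Cul1, the scaffold of the SCF ubiquitin ligase that marks p27 and cyclin E for destruction, measured 182 and 128 FPKM in the JNK_WT lines against 82.3 and 89.3 FPKM in the JNK_KO lines (log2 difference -0.83, limma adjusted p-value 0.561). It lies on chromosome 6, and relative to the median of that chromosome its difference was -0.24.

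Genes that RB and E2F control were examined in the same way. Of 35 tested targets 0 were called higher and 0 lower, 1, Ezh2, had an unadjusted p-value under 0.05, and the median log2 difference was -0.06. For 32 of the 35 the difference was within 0.5 of 0, a share not worked out for all tested genes. Beyond 0.75 in size, 0 were higher and 2 lower, beside 9.25% and 6.43% of all tested genes. The JNK_KO lines both lay above the JNK_WT lines for 2 and both below for 6. In all these made up 22.9% of the list, beside 35.0% of all tested genes. Relative to the mean of the 4 lines, the list had a median of 0.04 and -0.08 for the JNK_WT lines, and of 0.19 and -0.28 for the JNK_KO lines. The spread of these medians was thus wider within JNK_KO cells than between genotypes.

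The targets that differed most were on chromosome 6. Ezh2, a histone methyltransferase, measured 77.3 and 64.1 FPKM in the JNK_WT lines against 34.5 and 37.1 FPKM in the JNK_KO lines (log2 difference -0.96, SE 0.23, limma adjusted p-value 0.43). Mcm2, a subunit of the replicative helicase, measured 73.5 and 52.2 FPKM in the JNK_WT lines against 41.5 and 28.7 FPKM in the JNK_KO lines (log2 difference -0.82, limma adjusted p-value 0.665). Relative to the chromosome 6 median these differences were -0.37 and -0.24. Ezh2 and Mcm2 are the only targets of the list on that chromosome and the only ones beyond 0.75 in size. The proliferation marker Mki67 measured 12.3 and 11.9 FPKM in the JNK_WT lines against 25.2 and 11.8 FPKM in the JNK_KO lines, with only JNK_KO replicate 1 apart from the rest and a log2 difference of 0.48 (limma adjusted p-value 0.957).

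**Figure D5:**
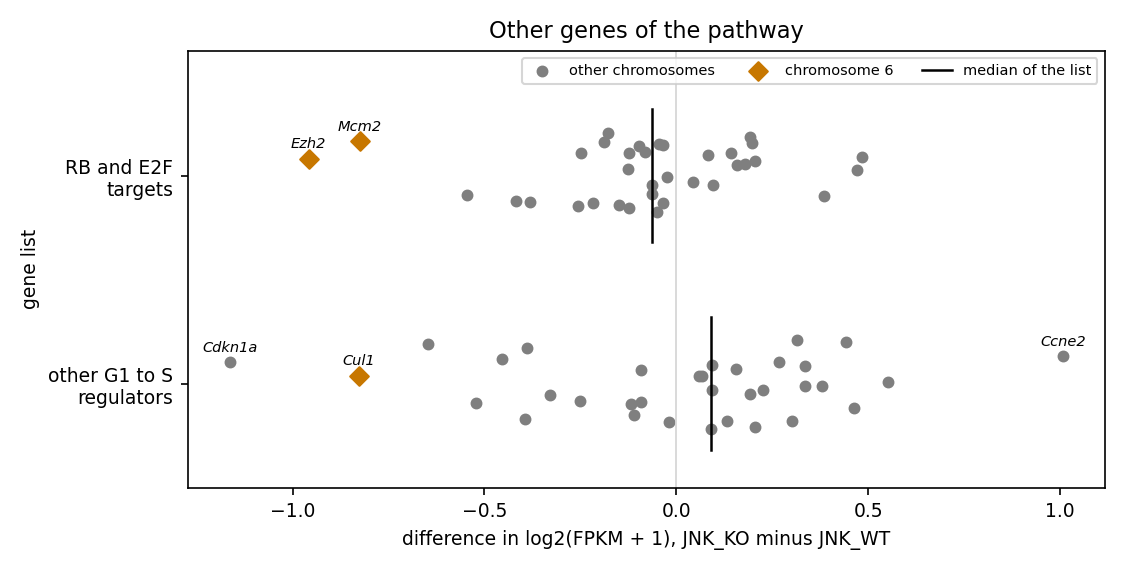
Difference in log2(FPKM + 1), JNK_KO minus JNK_WT, of 34 other G1 to S regulators and 35 RB and E2F target genes, 1 point per gene (vertical scatter has no meaning), with genes beyond 0.75 in size named. Most points lie near the list medians of 0.09 and -0.06 (black lines), and the chromosome 6 genes Cul1, Ezh2 and Mcm2 (orange) lie between -0.96 and -0.82.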

How the data were processed

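The authors trimmed single-end reads with Trimmomatic, sampled them with seqtk, aligned them to mm10 (GRCm38) with Bowtie2 and TopHat2 2.0.14, and obtained FPKM with Cufflinks 2.2.1. The deposited table gives each gene an FPKM value for every library on its own. The annotation and any scaling between libraries are not given in the sources used here. Cufflinks divides by transcript length and shares reads among overlapping transcripts, so values of overlapping genes can trade reads.

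Of 38741 rows, 27 with symbols turned into dates and 1 without a value were left out. Groups and replicate numbers came from the sample titles. Genes at 1 FPKM or more in at least 2 libraries (12998) were fitted on log2(FPKM + 1) with limma 3.58.1 (R 4.3.3, eBayes with trend, two-sided, Benjamini-Hochberg over all tested genes), JNK_KO minus JNK_WT, with no covariate. Calls needed an adjusted p-value under 0.05 and an absolute log2 difference over 0.75. The fit was tested on simulated data. Cuffdiff, which the submitters' processing notes name, needs alignments and was not run. Positions came from GENCODE M21 (12790 tested genes, 98.4%, matched by symbol or RefSeq synonym), and neighbours were up to 5 tested genes on each side. Promoters came from RefSeq.

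The genes and lists were chosen with earlier results of these data known. Named genes were the 10 members, the targeted genes, family partners of the members, and the listed genes with the largest differences (4 per pathway list, 3 of the transcription factors). Some genes that this rule or the marker lists name are not reported here. In addition 3 listed genes (1 regulator and 2 targets) were not analysed here. Steps of low values put depth relative to JNK_KO replicate 1 at 1.06 and 1.27 for JNK_WT replicates 1 and 2 and 1.4 for JNK_KO replicate 3. Read counts were not recovered, so no counting interval is given. With 2 lines per group, SDs rest on 2 values. Alternatives were other pseudocounts, filters, scalings, a fit without the trend and fits without each replicate.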

Additional observations from a re-analysis of the deposited data

How the results depend on the processing

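No paired analysis was run, because the labels do not pair JNK_WT lines with JNK_KO lines. All 40 values of the 10 genes under pseudocounts of 0.1 and 0.5, upper quartile scaling and quantile normalization kept their sign and stayed within 1 SD. Without 1 replicate, 5 genes changed sign: Ccnd1 ranged from -0.37 to 1.01, Cdk4 from -0.80 to 0.03, Cdkn2b from -0.26 to 0.54, Rb1 from -0.15 to 1.15 and Ccne1 from -1.27 to 0.32. Ccnd1 and Cdkn2b turned below 0 without JNK_WT replicate 2 or without JNK_KO replicate 1, Cdk4 and Ccne1 above 0 and Rb1 below 0 without JNK_WT replicate 1. The D cyclin sum, which turned below 0 without JNK_WT replicate 2 (-0.52) or JNK_KO replicate 1 (-0.40), ranged from -0.52 to 0.57 and the Cdk6 share from 0.59 to 0.93. Relative to its neighbours Cdkn1b turned to 0.17, and Cdkn2b turned to -0.29, or to -0.047 relative to its chromosome. Calls over all tested genes went from 0 to 10 and 14 with pseudocounts of 0.1 and 0.5 and to 14 without the trend, and were 0 with each other filter or scaling. The cause was not tested. Both pathway lists had 0 calls under every alternative run, and their medians without 1 replicate ranged from -0.046 to 0.29 (regulators) and -0.29 to 0.22 (targets). With 2 lines per group, single lines decide most of the smaller values.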

Other observations

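Transcription factors known to act at these genes were examined as a further list of 20, of which 19 were tested. None was called by limma (0 genes, 2 at an unadjusted p-value under 0.05), and their median log2 difference was 0.09. Apart from Ezh2, described above, the largest differences were those of Cbx7 and Smad3. Cbx7, a Polycomb protein that represses the Cdkn2a locus, measured 12.3 and 19.3 FPKM in the JNK_WT lines against 27.1 and 33.7 FPKM in the JNK_KO lines, a log2 difference of 0.92 (SE 0.33, limma adjusted p-value 0.626) with groups that did not overlap. Smad3, which carries the TGF-beta signal that induces Cdkn2b, measured 126 and 46.0 FPKM in the JNK_WT lines against 53.1 and 31.4 FPKM in the JNK_KO lines, with overlapping groups and a log2 difference of -0.88 (SE 0.58, limma adjusted p-value 0.889).

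Profiles over the 4 libraries were compared by Euclidean distance on the log2(FPKM + 1) scale after centring each gene on its mean, for the cyclin, the kinase and the inhibitor with the widest range. The nearest genes to Ccnd2 were Gm25323, Gm4875 and Gm22079, at distances of 0.75, 0.89 and 1.02. In both JNK_KO lines Gm25323 and Gm22079 were listed at 0, and Gm4875 was at 0.0549 and 0.0782 FPKM. These genes thus passed the filter on low values only through the JNK_WT lines, so nothing is read from their likeness to Ccnd2. Those nearest to Cdk4 were Samd4b, AI597468 and Hs2st1, at 0.060 to 0.071. Those nearest to Cdkn2c were Parp8, Ppm1h and Cx3cl1, at 0.14 to 0.17. With 4 libraries such likeness is a description only.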
